A study of Equus caballus with 10 samples.

Results

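Neurotrophin and pain-related signalling genes were examined in equine tenocytes, the fibroblast-like cells of tendon, in the presence and absence of interleukin-1 beta (IL-1β). The genes were 9 of the 29196 gene names in the deposited expression table, found by exact gene name: the neurotrophins BDNF and NTF3, the neurotrophin receptors NTRK2 and NGFR, the tachykinin precursor gene TAC1, the bradykinin receptors BDKRB1 and BDKRB2, and CALCRL and RAMP1, which together form the receptor of calcitonin gene-related peptide (CGRP). Primary cells from the superficial digital flexor tendon of 5 adult horses, taken after death, gave 1 cell line per horse and were kept for 14 days in three-dimensional gels of collagen. They received either the IRAK-4 inhibitor PF-06650833 by itself (100 nM, added every day), here called inhibitor alone, or the same inhibitor and IL-1β (17 ng/ml, added every 3 to 4 days), here called IL-1β plus inhibitor. Every line gave 1 library to each group, 5 per group. IRAK-4 is a kinase downstream of the IL-1 receptor, and its inhibitor was given to the cultures of all 10 libraries, so the comparison is of IL-1β against no IL-1β in the presence of the inhibitor. Cultures without the inhibitor were not analysed here. The horses are called donors 1 to 5, in the order of the sample labels.

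Neurotrophins are secreted growth factors that bind receptor tyrosine kinases of the TRK family and the shared receptor p75, encoded by NGFR, and they are best known for the survival and sensitization of sensory neurons. Bradykinin and related kinins are cut from kininogen in injured tissue and act on a constitutive receptor, B2, and on an inducible receptor, B1. Substance P and CGRP are peptides of sensory nerve endings, and receptors for several of these signals have been described on tendon cells.

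The deposited values are log2 expression after a variance-stabilizing transformation, recognised from the values because the sources used here do not name it, and on this scale a gene with 0 reads stands at 3.43. Normalized counts, recovered by inverting that transformation, are given beside them because the log2 scale is compressed for genes with few reads. Of the 9 genes, 8 exceeded the value of 0 reads in 5 or more of the 10 libraries and were tested with limma together with 17992 genes in all, with Benjamini-Hochberg adjustment over those genes. A gene is said to be called at an adjusted p below 0.05 if its log2 fold change was also 1 or more in size. Because each donor is in both groups, a second fit that also takes the donor into account (the replicate block, since the replicate number marks the donor) is given where it changes a call. In bulk RNA a change in RNA per cell and a change in the share of cells that express a gene cannot be told apart.

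The recovered normalized counts summed to between 34358354 and 38755204 per library. As background for the marker counts below, 6.68% of all tested genes were called, 3.11% higher and 3.57% lower. With the replicate block 8.26% were called, 4.01% higher and 4.25% lower. Of 17 listed tendon fibroblast markers in the table, 16 were tested, 5 were called lower and 0 higher (limma), with a sum of 1410000 to 2070000 normalized counts with inhibitor alone and 539000 to 1670000 with IL-1β plus inhibitor. In the fit with the replicate block 8 were called lower, the added genes being COL1A1 (log2 fold change -1.38), COL1A2 (-1.28) and THY1 (-1.02). TNMD, a marker of mature tenocytes, was listed at the value of 0 reads in all 10 libraries. Of 9 Schwann cell and glial markers, 2 (CDH19 and FOXD3) stood at the value of 0 reads in all libraries, 3 were tested and 0 called, and their sum was 40.2 to 100 normalized counts with inhibitor alone and 35.8 to 84.4 with IL-1β plus inhibitor. The 10 endothelial markers summed to 54.4 to 101 and 77.3 to 184 normalized counts, with 7 tested and 0 called. Of 10 neuronal markers 9 were tested and 1, SNAP25, was called higher, with sums of 3050 to 6760 and 2770 to 5310, most of it from TUBB3. Of 8 pericyte and smooth muscle markers, 3 were called lower, with sums of 14000 to 65800 and 16800 to 32400. Of 10 leukocyte and macrophage markers, 4 were tested and 1, CD68, was called higher, with sums of 76.8 to 1790 and 206 to 2000. PTPRC, the pan-leukocyte gene, had at most 3.09 normalized counts in any library. CD14 ranged from 0 to 1660 and from 0 to 1680, was higher in 4 donors and was not called (adjusted p = 0.34 from limma). The part of these markers in the results below was not tested.

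Of the 8 tested genes, 2 were called, BDKRB1 and BDKRB2, and both rose. Over all tested genes 6.68% were called, 3.11% higher and 3.57% lower. With the replicate block 3 of the 8 were called, the same bradykinin receptors and NTRK2, which fell, against a background of 8.26% called, 4.01% higher and 4.25% lower. BDNF passed the adjusted p but not the minimum fold change. RAMP1 was expressed at a low level and was not called, and CALCRL, NTF3, NGFR and TAC1 were at or near the value of 0 reads. The groups overlapped for all 8 tested genes. Over all tested genes the groups did not overlap for 12.7%, and with 8 genes these shares cannot be told apart. The median log2 fold change of the 8 genes was 0.06, against -0.01 over all tested genes, and their median absolute log2 fold change was 0.62, against 0.25.

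**Figure D1:**
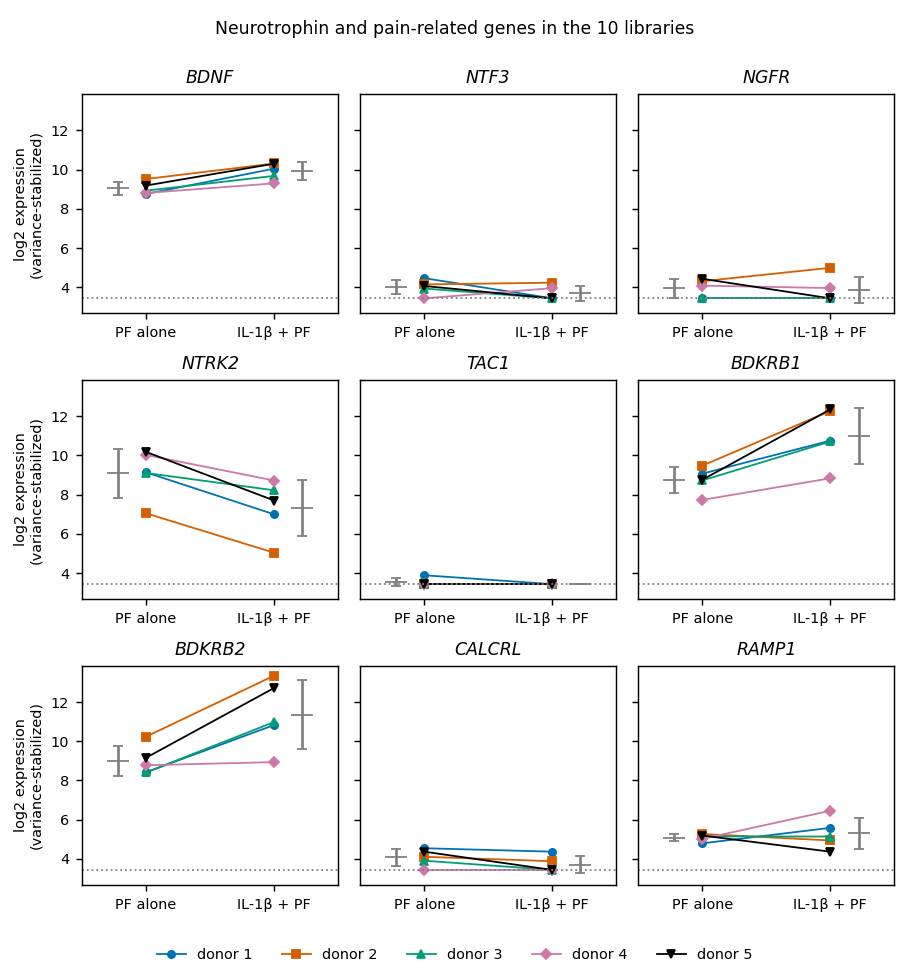
Log2 expression (variance-stabilized, y axis) of the 9 genes in inhibitor alone (PF alone) and in IL-1β plus inhibitor (IL-1β + PF, x axis). Lines join the libraries of a donor, grey bars give the mean ± SD of 5 libraries, and the dotted line is the value of 0 reads, 3.43. BDKRB1, BDKRB2 and BDNF were higher in all 5 donors, NTRK2 was lower in all 5, and TAC1 left the dotted line in 1 library.

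BDNF, a ligand of the receptor encoded by NTRK2, was detected in every library. With inhibitor alone its normalized counts in donors 1 to 5 were 412, 714, 466, 428 and 563. With IL-1β plus inhibitor they were 1040, 1252, 799, 609 and 1243. Each donor had more BDNF with IL-1β plus inhibitor, and the groups overlapped only through donor 4 with IL-1β plus inhibitor, at 609, which lay below donor 2 with inhibitor alone. Log2 expression was 9.04 ± 0.32 (SD, n = 5) and 9.93 ± 0.44 (SD, n = 5), a log2 fold change of 0.89 (95% confidence interval 0.41 to 1.37, adjusted p = 0.0194 from limma), or 1.85-fold. The adjusted p with the replicate block was 0.00365, and over all alternatives it ranged from 0.00365 to 0.106. The log2 fold change reached the minimum of 1 only without 1 library: it was 1.01 without donor 2 of inhibitor alone and 1.05 without donor 4 of IL-1β plus inhibitor. In fits with no donor term the adjusted p (limma) rose above 0.05 without donor 1 (0.0505) or donor 2 (0.0531) of IL-1β plus inhibitor. It also did so without both libraries of donor 1 (0.106) or donor 5 (0.0779). With the replicate block it stayed below 0.05 when any donor was left out, from 0.00366 to 0.0187 (limma), and BDNF was still under the minimum fold change.

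NTF3, which encodes neurotrophin-3, was barely detected. Its highest normalized count was 5.75, in donor 1 with inhibitor alone, and it stood at the value of 0 reads in donor 4 with inhibitor alone and in donors 1, 3 and 5 with IL-1β plus inhibitor. At means of 2.37 and 0.966 normalized counts both groups lay under 3 counts, so no fold change is given. No difference was detected at these low counts (adjusted p = 0.41 from limma).

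NTRK2 encodes TRKB, the receptor tyrosine kinase of BDNF, and the table does not separate its full-length from its truncated transcripts. With inhibitor alone its normalized counts in donors 1 to 5 were 540, 111, 529, 1019 and 1138. With IL-1β plus inhibitor they were 107, 14.7, 277, 400 and 187. NTRK2 was lower in all 5 donors with IL-1β plus inhibitor, and donor 2 had the lowest level in either group. Log2 expression was 9.10 ± 1.25 (SD, n = 5) and 7.33 ± 1.44 (SD, n = 5), a log2 fold change of -1.76 (95% confidence interval -3.36 to -0.16, adjusted p = 0.13 from limma), so NTRK2 was not called without a donor term. With the replicate block the interval was -2.31 to -1.22 and NTRK2 fell (adjusted p = 0.00245 from limma). The call with the block was kept when any of the 5 donors was left out, with adjusted p-values from 0.00177 to 0.017. Without a donor term NTRK2 was called only when donor 2 of inhibitor alone (log2 fold change -2.28, adjusted p = 0.0476) or both libraries of donor 2 (-1.70, adjusted p = 0.0349) were left out. Over all alternatives the adjusted p ranged from 0.00177 to 0.313. In donors 1 to 5 the log2 difference between the libraries was -2.14, -2.01, -0.88, -1.30 and -2.48.

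NGFR, the gene of p75, which binds all neurotrophins, had normalized counts of 0, 4.09, 0, 2.23 and 5.39 in donors 1 to 5 with inhibitor alone. With IL-1β plus inhibitor these were 0, 13.9, 0, 1.45 and 0. The highest value was that of donor 2 with IL-1β plus inhibitor, and donors 1 and 3 stood at the value of 0 reads in both groups. NGFR was higher in 1 donor and lower in 2, and no difference was detected at these low counts (adjusted p = 0.895 from limma).

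The bradykinin receptor genes had the largest changes among the 8 tested genes in absolute log2 fold change. BDKRB1 encodes the B1 receptor, which binds kinins that have lost their C-terminal arginine. Its normalized counts in donors 1 to 5 were 516, 691, 401, 191 and 411 with inhibitor alone. They were 1705, 4924, 1657, 435 and 5204 with IL-1β plus inhibitor. BDKRB1 was higher in all 5 donors, most in donors 5 and 2, and the groups overlapped only because donor 4 with IL-1β plus inhibitor stayed below donors 1 and 2 with inhibitor alone. Log2 expression was 8.75 ± 0.65 (SD, n = 5) with inhibitor alone and rose to 10.98 ± 1.44 (SD, n = 5). The log2 fold change was 2.23 (95% confidence interval 0.91 to 3.56, adjusted p = 0.0288 from limma), or 4.70-fold. With the replicate block the interval was 1.48 to 2.98 (adjusted p = 0.00329 from limma).

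BDKRB2 encodes the B2 receptor, which binds bradykinin itself. Its normalized counts in donors 1 to 5 were 320, 1182, 318, 416 and 550 with inhibitor alone. They were 1797, 10410, 1998, 468 and 6713 with IL-1β plus inhibitor. The order of the donors with IL-1β plus inhibitor ran from donor 4, the lowest, to donor 2, the highest, and donor 4 was the only library of that group inside the range of inhibitor alone. Log2 expression was 9.0 ± 0.76 (SD, n = 5) with inhibitor alone and rose to 11.36 ± 1.74 (SD, n = 5). The log2 fold change was 2.36 (95% confidence interval 0.78 to 3.95, adjusted p = 0.0478 from limma), or 5.15-fold. With the replicate block the interval was 1.37 to 3.36 (adjusted p = 0.00773 from limma).

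Without a donor term the bradykinin receptors lost their calls when any 1 of several libraries was left out. Over all alternatives the log2 fold change lay between 1.89 and 2.77 for BDKRB1 and between 1.87 and 2.97 for BDKRB2. BDKRB1 was no longer called without donor 4 (adjusted p = 0.0692 from limma) or donor 5 (0.0586) of inhibitor alone, or without donor 1 (0.0556), donor 2 (0.0706) or donor 5 (0.0643) of IL-1β plus inhibitor. BDKRB2 kept its call only without donor 2 of inhibitor alone or donor 4 of IL-1β plus inhibitor, and in the other 8 cases its adjusted p lay between 0.0599 and 0.108. These were donors 1, 3, 4 and 5 of inhibitor alone (0.0993, 0.0891, 0.093 and 0.0845) and donors 1, 2, 3 and 5 of IL-1β plus inhibitor (0.0755, 0.101, 0.0599 and 0.108). Without both libraries of donor 1, 2, 3 or 5 neither gene was called (adjusted p = 0.0665 to 0.115 for BDKRB1 and 0.0787 to 0.166 for BDKRB2), and without donor 4 both were. With the replicate block both genes were called when any donor was left out. Over all alternatives the adjusted p ranged from 0.00252 to 0.115 for BDKRB1 and from 0.000536 to 0.166 for BDKRB2, and both were higher with IL-1β plus inhibitor under every alternative. In the RefSeq annotation of another horse assembly, TB-T2T, the genes are direct neighbours. LOC138920683 overlaps BDKRB1 there, but this name is not in the deposited table, so its level could not be looked at. No gene overlaps BDKRB2 there.

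The donors differed in the size of the bradykinin receptor changes. In donors 1 to 5 the log2 difference between the libraries was 1.68, 2.80, 1.99, 1.10 and 3.60 for BDKRB1 and 2.41, 3.12, 2.58, 0.16 and 3.56 for BDKRB2. Donor 4 had the smallest difference in both receptors and in BDNF (0.49), and donor 5 the largest in both receptors and in NTRK2 (-2.48). Over the 1202 genes called without a donor term the median absolute difference was 1.61, 1.78, 1.10, 1.50 and 1.96 in the same order, so that donor 3 and not donor 4 had the smallest difference over those genes. With 1 library per donor and group, these differences have no replicate check.

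**Figure D2:**
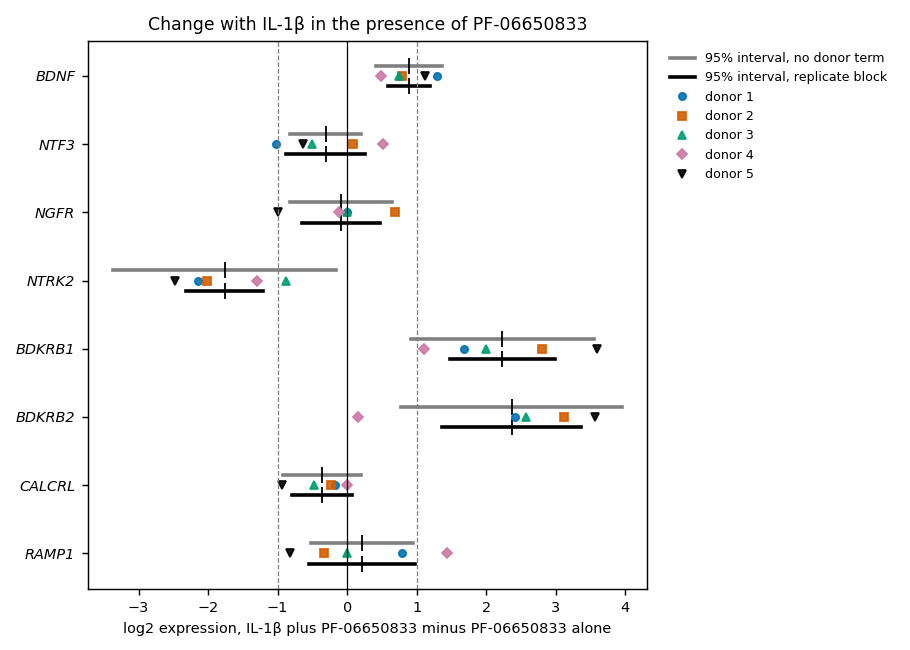
Difference in log2 expression, IL-1β plus inhibitor minus inhibitor alone (x axis), for the 8 tested genes. Points are the 5 donors, the tick is the mean, and bars are 95% confidence intervals from limma without a donor term (grey) and with the replicate block (black), with dashed lines at -1 and 1. The intervals of NTRK2, BDKRB1 and BDKRB2 are narrower with the block, and donor 4 lies at 0.16 for BDKRB2.

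TAC1, the gene from which substance P and neurokinin A are made, was above the value of 0 reads in 1 of 10 libraries. That library was donor 1 with inhibitor alone, at 1.08 normalized counts. TAC1 was not tested.

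CALCRL and RAMP1 encode the 2 chains of the CGRP receptor, a G protein-coupled receptor and the accessory protein that brings it to the cell surface. CALCRL had normalized counts of 6.68, 2.38, 1.16, 0 and 4.66 in donors 1 to 5 with inhibitor alone and of 4.66, 1.03, 0, 0 and 0 with IL-1β plus inhibitor. It was lower in 4 donors and at the value of 0 reads in both libraries of donor 4, and the groups overlapped. Both group means, 2.98 and 1.14, lay under 3 counts, so no fold change is given (adjusted p = 0.381 from limma).

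RAMP1 had normalized counts of 10.3, 19.9, 17.1, 14.4 and 18.1 in donors 1 to 5 with inhibitor alone. With IL-1β plus inhibitor they were 28.7, 12.8, 16.9, 67.4 and 4.65. The libraries of inhibitor alone lay close together, and those of IL-1β plus inhibitor spread on either side of them, with donor 4 the highest and donor 5 the lowest. The log2 fold change was 0.21 (95% confidence interval -0.52 to 0.95, adjusted p = 0.729 from limma), higher in 2 and lower in 3 donors. Without donor 4 of IL-1β plus inhibitor it was -0.08. LOC111773872, which overlaps RAMP1 in the TB-T2T annotation, was at the value of 0 reads in all libraries.

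The ligands, partner receptors and enzymes of the same systems were taken from lists of 113 further gene names. Of these names 108 were in the table and 75 could be tested. Of these 75, 11 (14.7%) were called, 4 higher and 7 lower with IL-1β plus inhibitor, against 6.68% of all tested genes. With the replicate block 17 were called, 8 higher and 9 lower, against 8.26% of all tested genes in that fit, 4.01% higher and 4.25% lower. The median log2 fold change of the 75 genes was -0.01, the same as over all tested genes to 2 decimals, and their median absolute log2 fold change was 0.37, against 0.25. The lists were chosen with earlier results of these data known, so these shares, and those of the single lists below, are a description and not a test.

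**Figure D3:**
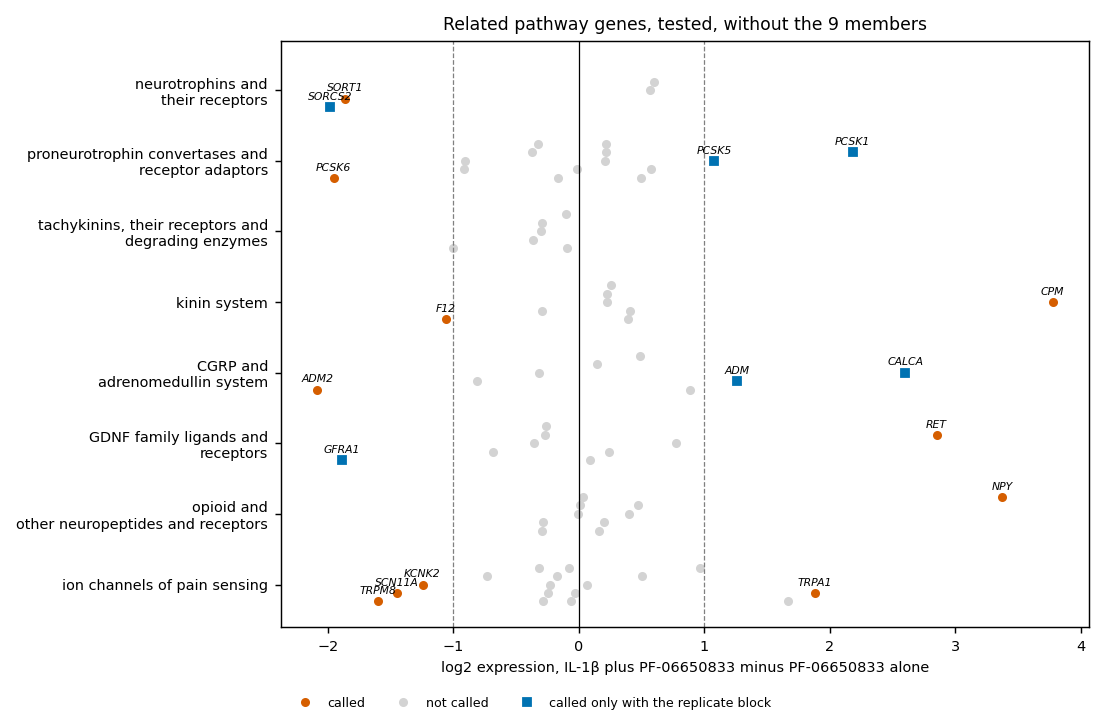
Difference in log2 expression, IL-1β plus inhibitor minus inhibitor alone (x axis), for the tested related genes by list (y axis), 1 point per gene with dashed lines at -1 and 1. Named orange points were called without a donor term, named blue squares only with the replicate block, and grey points were not called. CPM lies farthest to the right, at 3.77.

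In the neurotrophin system, the sorting receptor SORT1, which binds the unprocessed precursors of neurotrophins, fell. Its level went from between 1145 and 2098 normalized counts to between 364 and 685, without overlap (log2 fold change -1.86, standard error 0.21, adjusted p = 0.000386 from limma). SORCS2, a related receptor of precursor neurotrophins, was called lower with the replicate block and not without it (log2 fold change -1.98, adjusted p = 0.0211 with and 0.103 without the block from limma), and it was called without a donor term when donor 3 of IL-1β plus inhibitor (adjusted p = 0.0219) or both libraries of donor 3 (0.0442) were left out. SORCS1, of the same list, went the other way and was higher in all 5 donors without overlap, at means of 0.819 and 3.81 normalized counts. Its log2 fold change of 0.60 was under the minimum, so it was not called (adjusted p = 0.0403 from limma). SORT1 was the 1 gene called without a donor term among 8 tested genes of this list, BDNF, NTF3, NTRK2 and NGFR included. That is 12.5%, against 6.68% of all tested genes. NTRK3, the receptor of neurotrophin-3, was near the value of 0 reads and was not tested, with means of 0.277 and 0.314 normalized counts.

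The neurotrophin precursors are cut by proprotein convertases. Of the 14 tested convertases and receptor adaptors 1 (7.14%) was called, against 6.68% of all tested genes. It was PCSK6, which fell from between 640 and 1315 to between 131 and 499 normalized counts (log2 fold change -1.95, adjusted p = 0.00396 from limma). PCSK1 and PCSK5 were called higher with the replicate block and not without it, with log2 fold changes of 2.18 (adjusted p = 0.16 without and 0.00116 with the block) and 1.08 (0.0692 without and 0.0238 with the block, limma). Without a donor term they were called when a donor 4 library was left out, for PCSK1 that of IL-1β plus inhibitor (adjusted p = 0.029) and for PCSK5 that of inhibitor alone (0.037), or both libraries of donor 4 (0.0422 for PCSK1 and 0.0307 for PCSK5). PCSK5 was higher in 4 of 5 donors and lower in donor 4.

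In the kinin system 4 of 10 tested genes (40%) were called, against 6.68% of all tested genes. They include the bradykinin receptors, which were already counted above. The receptors and CPM were higher, and F12 was lower. CPM encodes carboxypeptidase M, a membrane enzyme that removes the C-terminal arginine of kinins and so makes the ligands of the B1 receptor. Its normalized counts in donors 1 to 5 were 618, 644, 58.9, 126 and 183 with inhibitor alone and 4688, 7557, 1531, 2335 and 3681 with IL-1β plus inhibitor. The groups did not overlap, and CPM had the largest log2 fold change of the related genes, 3.77 (standard error 0.61, adjusted p = 0.00263 from limma), with the call kept under all 28 alternatives. F12, coagulation factor XII, which starts kinin release, fell from between 297 and 675 to between 155 and 260 normalized counts (log2 fold change -1.06, adjusted p = 0.0189 from limma). Its change was near the minimum, and it was not called without donor 4 (-0.89) or donor 5 (-0.92) of inhibitor alone, or without donor 2 (-0.997, adjusted p = 0.0503) or donor 3 (-0.99) of IL-1β plus inhibitor. It was also not called without both libraries of donor 1 (adjusted p = 0.0565 from limma), donor 2 (0.0512), donor 4 (0.0565) or donor 5 (0.0504). These fits had no donor term. With the replicate block and all donors F12 was called (adjusted p = 0.00574 from limma), and it was lower in all 5 donors. KNG1, the gene of kininogen, was under the filter with means of 0.744 and 0.629 normalized counts, and KLKB1 and KLK1, the genes of plasma and tissue kallikrein, were not called (adjusted p = 0.327 and 0.774 from limma).

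In the CGRP and adrenomedullin system 1 of 10 tested genes (10%), CALCRL and RAMP1 included, was called, against 6.68% of all tested genes. It was ADM2, the gene of the related peptide intermedin, which fell from between 49.5 and 194 to between 4.94 and 24.6 normalized counts without overlap (log2 fold change -2.08, adjusted p = 0.00248 from limma). CALCA, which encodes calcitonin and CGRP by alternative splicing that a table per gene does not separate, had normalized counts of 64.6, 33.5, 3.01, 2.49 and 11.9 in donors 1 to 5 with inhibitor alone and of 785, 256, 19.7, 13.0 and 1284 with IL-1β plus inhibitor. It was higher in all 5 donors, with donors 5 and 1 far above donors 3 and 4, and it was called with the replicate block and not without it (log2 fold change 2.60, adjusted p = 0.113 without and 0.0223 with the block from limma). Without a donor term CALCA was called when donor 3 (adjusted p = 0.0493) or donor 4 (0.0348) of IL-1β plus inhibitor was left out. CALCB, the similar gene of a second CGRP, was higher in all 5 donors and was not called (log2 fold change 0.88, adjusted p = 0.464 without and 0.0784 with the block from limma), and sharing of reads between the pair was not tested. ADM, adrenomedullin, was called higher with the block and not without it (log2 fold change 1.26, adjusted p = 0.2 without and 0.0119 with the block), and also without a donor term when leaving out donor 5 of IL-1β plus inhibitor (0.0338, limma). RAMP2, the partner of CALCRL in the adrenomedullin receptor, was not called (log2 fold change 0.15, adjusted p = 0.743 from limma), and RAMP3 was not tested.

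**Figure D4:**
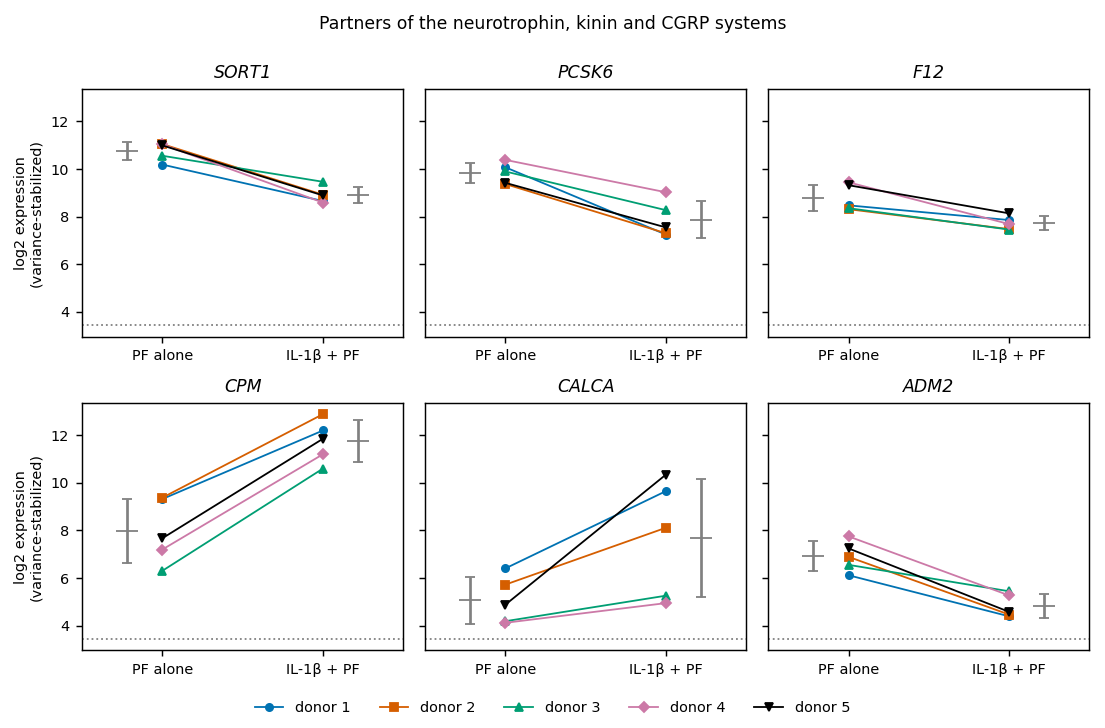
Log2 expression (variance-stabilized, y axis) of 6 related genes in inhibitor alone (PF alone) and in IL-1β plus inhibitor (IL-1β + PF, x axis). Lines join the libraries of a donor, grey bars give the mean ± SD of 5 libraries, and the dotted line is the value of 0 reads, 3.43. CPM and CALCA were higher and SORT1, PCSK6, F12 and ADM2 lower with IL-1β plus inhibitor in all 5 donors, and CALCA spread from 13.0 to 1284 normalized counts with IL-1β plus inhibitor.

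Of 6 tested tachykinin genes, receptors and degrading enzymes, 0 were called by limma with or without the replicate block, and 0 had an unadjusted p below 0.05. Over all tested genes 6.68% were called without the block and 8.26% with it. Of all 17992 tested genes, 5348 had an unadjusted p below 0.05 (limma) without the block and 6506 with it. TACR1, the receptor of substance P, was above the value of 0 reads in 3 libraries of inhibitor alone and 2 of IL-1β plus inhibitor, with at most 40.9 and 8.14 normalized counts (adjusted p = 0.722 from limma). MME, neprilysin, which breaks down substance P, CGRP and bradykinin, had means of 294 and 103 (log2 fold change -1.003, adjusted p = 0.407).

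The other lists held genes of pain sensing outside these systems. Of 9 tested genes of the GDNF family 1 (11.1%) was called, against 6.68% of all tested genes. This was RET, the shared receptor kinase, which rose from between 105 and 750 to between 489 and 4099 normalized counts (log2 fold change 2.85, adjusted p = 0.00973 from limma). Its co-receptor GFRA1 was lower in 4 donors and higher in donor 3, and it was called lower with the replicate block and not without it (log2 fold change -1.89, adjusted p = 0.0464 with and 0.116 without the block from limma). The call with the block was lost on log2(normalized count + 1) values (adjusted p = 0.0558 from limma). Without a donor term GFRA1 was called when donor 3 of inhibitor alone (0.0302), donor 4 of IL-1β plus inhibitor (0.0372) or both libraries of donor 3 (0.0435) were left out. Of 10 tested neuropeptides and their receptors 1 (10%) was called. This was NPY, neuropeptide Y, which rose from between 20.6 and 48.4 to between 171 and 1120 normalized counts without overlap (log2 fold change 3.37, adjusted p = 0.000893 from limma).

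Of 17 tested ion channels of pain sensing, 1 was called higher and 3 lower. Together they were 23.5% of the list, against 6.68% of all tested genes, 3.11% higher and 3.57% lower. TRPA1, a channel opened by irritants, rose from between 36.9 and 103 to between 110 and 461 normalized counts without overlap (log2 fold change 1.88, adjusted p = 0.00578 from limma). The cold-sensing channel TRPM8 fell from between 9.27 and 70.5 to between 1.15 and 4.60 normalized counts (log2 fold change -1.60, adjusted p = 0.0093 from limma). KCNK2, a mechanically gated potassium channel, fell from between 910 and 2220 to between 327 and 985 normalized counts (log2 fold change -1.24, adjusted p = 0.0229 from limma) and was not called without donor 1 (0.0541), donor 2 (0.0602) or donor 5 (0.0518) of IL-1β plus inhibitor, or without both libraries of donor 1 (0.085), donor 2 (0.0825), donor 3 (0.0554) or donor 5 (0.087). SCN11A, a sodium channel of nociceptors, fell from between 24.7 and 139 to between 5.78 and 26.7 normalized counts (log2 fold change -1.45, adjusted p = 0.0303 from limma), and it was not called without donor 4 (0.0692) or donor 5 (0.0663) of inhibitor alone or without donor 1 (0.0506), donor 2 (0.0675), donor 3 (0.056) or donor 5 (0.0702) of IL-1β plus inhibitor. SCN11A was also not called without both libraries of donor 1 (adjusted p = 0.0703 from limma), donor 2 (0.0817) or donor 5 (0.133). These fits of KCNK2 and SCN11A had no donor term. With the replicate block and all donors, both genes were called (adjusted p = 0.00026 and 0.0158 from limma). The log2 difference of KCNK2 in donors 1 to 5 was -1.10, -1.42, -1.31, -1.15 and -1.24. TRPV1, the capsaicin receptor, had means of 7.03 and 9.15 normalized counts and was not called (adjusted p = 0.962 from limma).

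At the value of 0 reads in all 10 libraries were 15 of the related genes, PCSK2, TAC3, TACR3, IAPP, GFRAL, OPRM1, NPY5R, GAL, GALR1, VIP, ADCYAP1, NMBR, NTS, NTSR1 and SCN3A.

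The genes whose expression was most like that of the called bradykinin receptors were sought among 13380 tested genes with a symbol, by Pearson's r over the 10 libraries. For BDKRB1 they were SALL4, a zinc-finger transcription factor (r = 0.997), GCNT4, a glycosyltransferase (0.981), and NAAA, an enzyme that hydrolyses palmitoylethanolamide (0.98). For BDKRB2 they were IGSF11, an adhesion molecule of the immunoglobulin family (0.984), NAAA (0.976) and NLRP3, an inflammasome sensor (0.976). After the group means were removed, r lay between 0.953 and 0.995 for these 6 pairs, so the likeness included the order of the donors. The log2 fold changes were 1.88 for SALL4, 2.08 for GCNT4, 2.66 for NAAA, 1.08 for IGSF11 and 2.40 for NLRP3, of which IGSF11 (adjusted p = 0.0553 from limma) and NLRP3 (0.0568) were not called. The points share donors and libraries, and the genes are the closest of many, so these values are a description without a test.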

How the data were processed

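RNA of equine tenocytes in 3D culture was sequenced in 10 libraries, 5 per group. Per the paper's methods, the authors ran Salmon (version 1.8) with GC-bias correction against transcripts of EquCab3.0, summed the estimates to genes with tximport and tested with DESeq2, a step not repeated here. The authors deposited log2 values, normalized between libraries, that are not counts. The transformation is not named, and was recognised as variance stabilization from the lowest value, 3.4332, shared by all libraries. All 10 columns were used. Normalized counts were obtained by inverting the transformation from that value.

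Genes above that value in at least 5 libraries entered linear models in limma 3.58.1 under R 4.3.3. The variance prior followed the mean. The model used first had no term for the donor because the methods name none, and a second fit had the replicate number as a block. The number stands for the tenocyte line in the labels, which is 1 horse. Deviations from the group means correlated within donors (r across genes 0.367 to 0.506 over 5 pairs, mean -0.107 over 20 pairs of different donors). Adjusted p-values are from limma with Benjamini-Hochberg adjustment. Alternatives were other scales, filters, normalizations, variance models and thresholds, the block, and omission of single libraries or donors. Not every listed gene is reported here. The genes and lists were chosen with earlier results of these data known. The genes named are the 9, each related gene called with or without the block, those at 0 reads, and the 3 genes most like each called gene; other related genes and markers were named after their values were seen. Gene names were matched to a RefSeq table of the TB-T2T assembly (23397 matched, all 9 among them).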

Additional observations from a re-analysis of the deposited data

Results flagged for a closer look

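In 3 of the 51 sets of 5 libraries (a gene in a group), 1 library stood far from the other 4. About 2.55 such sets arise by chance if the values are normally distributed and the sets independent. That does not hold for libraries tied at 0 reads, as in TAC1, or for 1 donor in both groups, as in KCNK2. TAC1 was at 3.89 on the log2 scale in donor 1 with inhibitor alone (1.08 normalized counts) and at the value of 0 reads in the other 4. KCNK2 was at 11.13 in donor 4 with inhibitor alone, against 9.86 to 10.00, and at 9.98 in donor 4 with IL-1β plus inhibitor, against 8.44 to 8.84, so donor 4 was apart in both groups.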

How the results depend on the processing

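Why these values moved between settings was not tested. Of the 8 tested genes, 2 were called. An unadjusted p below 0.05 (limma) was found for 4 of the 8, against 5348 of all 17992 tested genes. There was 1 with all genes that are not constant, without the mean-variance trend or with a robust one, which lost BDKRB2 each time (adjusted p = 0.0526, 0.0616 and 0.0605). There were 0 at an adjusted p below 0.01 (4 at an unadjusted p below 0.05), 3 with the replicate block and 4 with the block and no minimum fold change. When single libraries or donors were omitted (15 fits), the number ranged from 0 to 4. With the block and a donor left out, 3 were called each time. Omitting a donor takes away 2 of 10 libraries.

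Of the related genes, 11 were called, 8 at an adjusted p below 0.01, 18 with array weights, 17 with the replicate block, 19 on log2(normalized count + 1) values with the block, and 25 with the block and no minimum fold change. Leaving out a library or donor gave 7 to 18, and the block without donors 1 to 5 gave 12, 13, 18, 19 and 16. Beside F12, KCNK2 and SCN11A, whose losses are given above, TRPM8 lost its call without donor 1 or 5 (adjusted p = 0.0598 and 0.0543) and RET without donor 5 (0.0609). These losses were in fits without a donor term, and each of these genes was called with the replicate block and all donors. Array weights gave a call to SORCS2, PCSK5, CALCA and GFRA1 without a donor term (adjusted p = 0.0245, 0.0372, 0.0235 and 0.0195).

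Over all genes 1202 were called, 1486 with the replicate block, 2782 without a minimum fold change, 719 at an adjusted p below 0.01, 1809 on log2(normalized count + 1) values with the block, 3996 with the block and no minimum fold change, and 747 to 1410 when a library or donor was left out. The direction held under every alternative in which the gene was tested for BDNF, NTRK2, BDKRB1, BDKRB2, CALCRL and NTF3. It did not for RAMP1 and NGFR, each in 3 alternatives. NTF3 had 32 alternatives, CALCRL 30 and NGFR 23, against 35 for the others. Alternatives that change only the block, variance model, filter or threshold leave the log2 fold change as it was, so they could not change its direction. The group means of CALCRL and NTF3 lay under 3 normalized counts. The fits with the block that left out a donor, and the block without a minimum fold change, were chosen after the data were seen.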
